A study of Mus musculus with 45 samples.

Results

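IL-4 is the cytokine with which macrophages are driven in culture to the alternatively activated, or M2, state. It binds a receptor whose signalling chain activates the transcription factor STAT6, and STAT6 then acts on a set of effector genes, many of them for secreted proteins of tissue repair and type 2 immunity. 6 genes that are often named as such effectors in macrophages were taken here by their symbols: *Retnla*, *Chil3*, *Tgm2*, *Fn1*, *F13a1* and *Il31ra*. They, and the gene lists used below, were chosen with earlier results of these data known. Counts of called genes among them are therefore descriptions and not tests. All 6 matched a single row, of 29307 genes in the count table and of 11900 in the smaller CPM table, and all 6 were among the 12905 genes tested.

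Gene expression was measured by RNA sequencing in bone marrow-derived macrophages of C57BL/6N mice, aged 6 to 10 weeks, that carried *Famin* p.254I, *Famin* p.254V or *Famin* p.284R (p254I, p254V and p284R below). FAMIN is a purine enzyme encoded by *Lacc1*. Cells grown for 6 days with M-CSF were left unstimulated for 24 h (M0) or polarized with 20 ng/mL IL-4 (M2). M1 cells were polarized with LPS at 20 ng/mL plus IFN-γ at 50 ng/mL. Each genotype had 5 replicate numbers with 1 library of each state, so 45 libraries in 9 groups. Libraries of the same genotype and number were taken to come from 1 mouse. The cells are cultured bulk populations, in which fewer cells of a kind and less RNA per cell cannot be told apart. Levels are given as CPM, the reads of a gene relative to the library's total after TMM scaling (a factor that aligns libraries of different composition), and a gene was called when its adjusted p from edgeR's quasi-likelihood test was below 0.05.

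Library totals ran from 17239009 to 43740283 reads, and 1 CPM, after TMM scaling, stood for 16.5 to 48.2 reads. All 7 macrophage markers examined were present in each state, with summed levels of 19542 to 33182 CPM in M0, 11221 to 15062 CPM in M1 and 9581 to 13827 CPM in M2. Of 10 listed M1 response genes 8 were tested, and all 8 were higher in M1 than in M0, beside 37% of all tested genes. The untested genes, *Il6* and *Il12b*, held 54 and 64 reads over all 45 libraries. 1 M1 library, p254I replicate 5, stood apart by its level of several IL-4 target genes, and M1 values below are given with and without it.

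*Retnla* encodes resistin-like alpha (also called RELMα or FIZZ1), a secreted protein of helminth infection and lung injury, and lies on chr16:48842551-48844461 (plus strand, mm10). *Chil3* encodes a secreted chitinase-like lectin without chitinase activity (Ym1) and lies on chr3:106147554-106167564 (minus strand). *Il31ra*, the ligand-binding receptor chain for IL-31, lies on chr13:112519898-112594360 (minus strand). *Fn1*, the matrix glycoprotein fibronectin, lies on chr1:71585520-71653200 (minus strand). *Tgm2*, transglutaminase 2, which crosslinks proteins, lies on chr2:158116402-158146436 (minus strand), and *F13a1*, the transglutaminase subunit A of coagulation factor XIII, on chr13:36867178-37050244 (minus strand).

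The promoter sequences of the genes that moved most with IL-4 are shown because STAT6 recognises a palindrome with a spacer of 4 bases, TTCNNNNGAA, and STATs in general one with a spacer of 3, TTCNNNGAA. Both motifs read alike on either strand and do not overlap each other in the windows below. The sequences are RefSeq's upstream windows (GRCm38.p6), written 5′ to 3′ on the strand of the gene, without the bases that lie in a GENCODE exon of the gene, with the matched motif in capitals. Windows of the neighbouring family members *Retnlg* and *Chil4* are set beside those of *Retnla* and *Chil3*.
Retnla, chr16:48842359-48842550, plus strand: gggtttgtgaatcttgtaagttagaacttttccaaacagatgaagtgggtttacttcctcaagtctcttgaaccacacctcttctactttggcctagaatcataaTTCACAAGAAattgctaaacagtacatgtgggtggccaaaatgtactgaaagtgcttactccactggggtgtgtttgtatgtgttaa
Retnlg, chr16:48872358-48872607, plus strand: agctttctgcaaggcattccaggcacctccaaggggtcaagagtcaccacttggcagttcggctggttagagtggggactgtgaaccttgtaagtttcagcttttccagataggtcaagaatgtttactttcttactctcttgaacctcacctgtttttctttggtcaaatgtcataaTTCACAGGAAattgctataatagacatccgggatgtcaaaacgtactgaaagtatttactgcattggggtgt
Chil3, chr3:106167565-106167814, minus strand: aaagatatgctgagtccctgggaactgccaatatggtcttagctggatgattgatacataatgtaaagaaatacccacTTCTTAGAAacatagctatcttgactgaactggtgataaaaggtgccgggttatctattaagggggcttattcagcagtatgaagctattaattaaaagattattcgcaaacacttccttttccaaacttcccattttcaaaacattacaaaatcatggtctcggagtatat
Chil4, chr3:106219508-106219729, minus strand: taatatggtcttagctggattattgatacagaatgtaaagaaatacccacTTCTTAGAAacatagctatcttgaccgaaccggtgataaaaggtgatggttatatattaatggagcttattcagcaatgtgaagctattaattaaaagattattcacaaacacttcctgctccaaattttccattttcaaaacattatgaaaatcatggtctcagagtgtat
Il31ra, chr13:112580663-112580912, minus strand: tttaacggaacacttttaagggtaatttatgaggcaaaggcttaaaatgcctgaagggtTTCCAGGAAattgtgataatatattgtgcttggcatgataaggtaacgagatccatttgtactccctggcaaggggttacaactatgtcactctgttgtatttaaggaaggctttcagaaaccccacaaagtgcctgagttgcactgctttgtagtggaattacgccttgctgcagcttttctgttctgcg

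The 4-base-spacer motif stood in the *Retnla* window, as TTCACAAGAA, beginning 145 bases before RefSeq's start, and in the *Retnlg* window, as TTCACAGGAA, 72 bases before. The 3-base-spacer motif stood in *Chil3* (TTCTTAGAA, 172 bases before), in *Chil4* (TTCTTAGAA, 200 bases before) and in *Il31ra* (TTCCAGGAA, 191 bases before). Neither motif was in either of the 2 *F13a1* windows. *Tgm2* and *Fn1* had no window among the sequences used here and were not searched. Of 32851 promoter windows, 4.58% held the 4-base-spacer motif in a length of 192 bases, that of the *Retnla* window, and 5.85% in 250 bases. The 3-base-spacer motif was held by 7.02% in 250 bases and by 6.31% in the 222 bases of the *Chil4* window. The *Il31ra* window lies inside the gene as GENCODE draws it, in no exon. A match is a stretch of letters, and binding was not measured here.

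IL-4 raised 4 of the 6 genes over M0 by the edgeR test (*Retnla*, *Chil3*, *Fn1* and *Il31ra*), when 36.8% of all tested genes were called higher in M2 than in M0 and 39.6% lower. The remaining pair, *Tgm2* and *F13a1*, was not called. The median log2 fold change of the 6 was 4.80, beside −0.03 over all genes tested.

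*Retnla* was close to silent in M0, from 0 to 0.577 CPM with a median of 0.0990 (66 reads in all over 15 libraries). In M2 it ran from 1286 to 9293 CPM with a median of 3279. The groups did not overlap, and the gene was higher in M2 in 15 of 15 mice. The ratio of the means, 3995 ± 2034 CPM in M2 (SD, n = 15) to 0.153 ± 0.141 CPM in M0, was 26158, with a 95% interval of 20561 to 33822 from the counting error of the M0 reads alone. The fitted log2 fold change was 14.66 (SE 0.77, edgeR quasi-likelihood test, adjusted p = 8.65e-20), ranked 1 of the 12905 genes. By genotype the ratio was 24454 in p254I (counting interval 15273 to 41978), 28427 in p254V (19401 to 43518) and 24711 in p284R (16468 to 38981).

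*Il31ra*, likewise close to 0 in M0, reached a much lower level. It held 0 to 0.0902 CPM in M0 (19 reads over 15 libraries) and 34.1 to 45.3 CPM in M2, with a median of 40.2, and the ranges were far apart. The ratio of the means was 938 (counting interval 600 to 1557), and the fitted log2 fold change of 9.76 ranked 6 of 12905 (edgeR, adjusted p = 2.81e-28). With so few M0 reads the fitted value depends on the prior count, and no SE is given for it. Of 2 tested eosinophil markers *Siglecf* was higher in M2 and *Prg2* lower, *Epx* held 13 reads in all, and the sum ran from 2.97 to 12.8 CPM in M0 and from 5.92 to 16.2 CPM in M2. Dendritic cell sums ran from 0.745 to 2.05 CPM in M0, from 4.11 to 14.1 CPM in M2 and from 208 to 432 CPM in M1. The M1 sum was mostly *Clec9a* (mean 304 CPM), and *Zbtb46* of the same list was higher in M2 (8.09 CPM) than in M0 (0.619) and M1 (0.316). The part of such cells in the M2 levels was not tested.

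*Chil3* started from a measurable level. Its M0 libraries ran from 5.05 to 44.5 CPM with a median of 13.9, and its M2 libraries from 716 to 2640 CPM with a median of 1470, again without overlap and higher in M2 in 15 of 15 mice. The log2 fold change was 6.41 (SE 0.35, edgeR, adjusted p = 2.68e-19). *Chil4*, a neighbouring chitinase-like gene, rose from a mean of 0.00982 CPM in M0 to 2.05 ± 0.711 CPM in M2 (SD, n = 15), and reads of the near-identical pair may have been split between them. Summed markers of neutrophils ran from 18.8 to 196 CPM in M0 and from 12.7 to 58.1 CPM in M2. Those of B cells, T cells, mast cells and basophils were at or near 0 in each state, at most 0.487 CPM. The part of such cells in the *Chil3* levels was not tested.

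*Fn1* showed a smaller rise from a higher start. M0 libraries held 8.76 to 91.2 CPM (median 35.7) and M2 libraries 146 to 687 CPM (median 349), without overlap and with M2 above M0 in all 15 mice. Its log2 fold change was 3.19 (SE 0.27, edgeR, adjusted p = 8.63e-14). Summed fibroblast and stromal markers (*Col1a1*, *Col1a2*, *Col3a1*, *Pdgfra* and *Dcn*) ran from 17.1 to 89.5 CPM in M0 and from 9.52 to 32.9 CPM in M2. Of the 4 tested markers 3 were lower in M2 and none was higher. The part of such cells in the M2 level of *Fn1* was not tested.

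*Tgm2* and *F13a1*, the 2 transglutaminase genes, overlapped between M0 and M2. *Tgm2* ran from 85.6 to 209 CPM in M0 (median 131) and from 122 to 235 CPM in M2 (median 156), with a log2 fold change of 0.26 (SE 0.14, edgeR, adjusted p = 0.0816). *F13a1* ran from 2.42 to 20.4 CPM in M0 (median 9.79) and from 2.29 to 35.6 CPM in M2 (median 11.8), with a log2 fold change of 0.59 (SE 0.31, edgeR, adjusted p = 0.0754). M2 was above M0 in 13 of 15 mice for *Tgm2* and in 12 of 15 for *F13a1*. With the mouse as a replicate block, which compares each mouse's M2 culture with its own M0 culture, both differences were called, *Tgm2* at 0.28 (edgeR, adjusted p = 0.0189) and *F13a1* at 0.66 (adjusted p = 6.79e-05). The ratios of means were 1.19 for *Tgm2* and 1.52 for *F13a1*. Without the block, *Tgm2* was also called when p254I replicate 3 (0.33, adjusted p = 0.0304) or p284R replicate 3 (0.33, adjusted p = 0.0343) was left out, and *F13a1* when p254I replicate 4 (0.62, adjusted p = 0.045) or p284R replicate 2 (0.70, adjusted p = 0.0409) was left out, by edgeR.

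**Figure D1:**
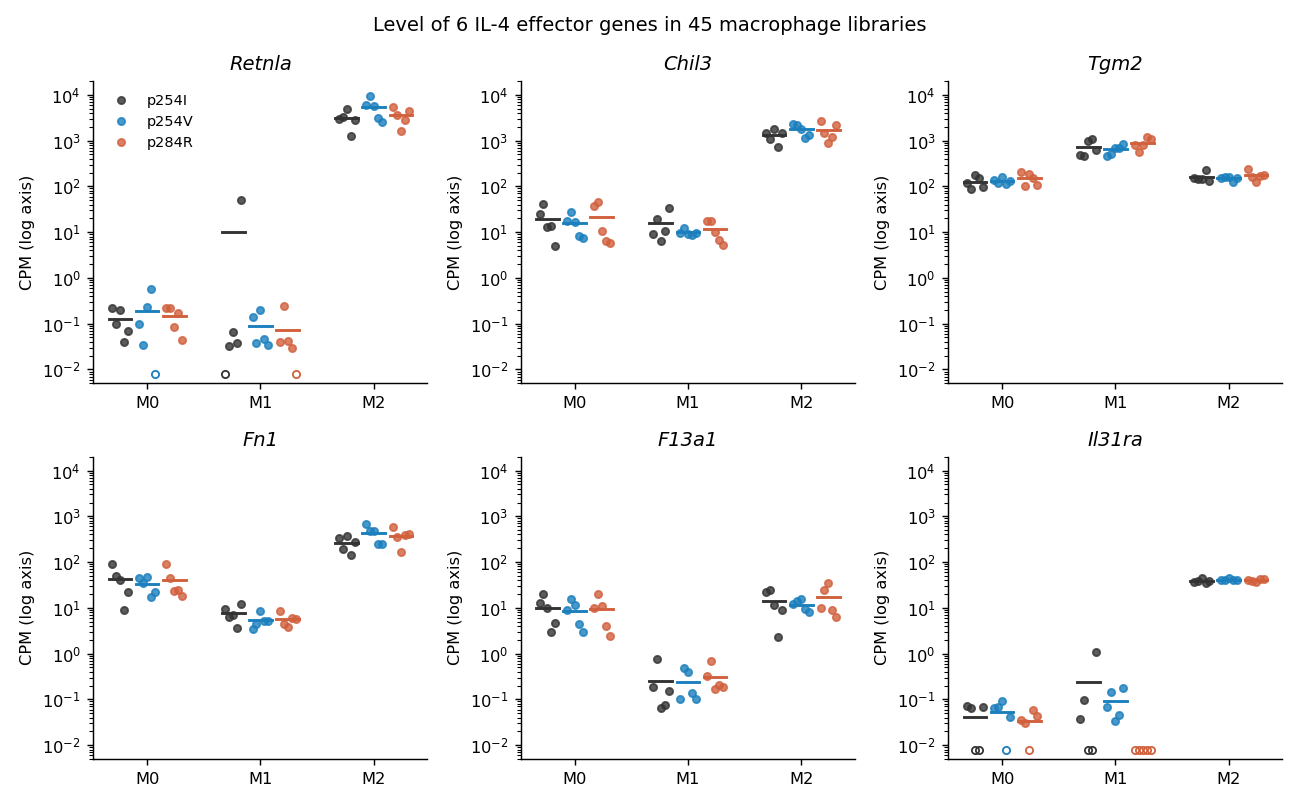
Levels of the 6 genes in CPM (log axis) in the 45 libraries, by state and genotype. Points are libraries, bars are means of 5 libraries, and open circles at the foot are libraries with 0 reads. *Retnla* and *Il31ra* in M2 lie above all M0 and M1 libraries, including the high M1 point of p254I replicate 5 at 49.1 CPM of *Retnla*, whereas *Tgm2* is highest in M1.

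Compared per kilobase of exon, the M2 macrophages held *Retnla* at a mean of 6669 CPM per kb, which placed it 2 among the 12905 genes. *Chil3* followed with 969 CPM per kb, rank 32. *Tgm2* (35.2) and *Fn1* (30.5) overlapped in range and their order held in 12 of 15 libraries. *Il31ra* came next with 7.05 CPM per kb, and *F13a1* was lowest with 2.12. In M0 the order was different, with *Tgm2* at 29.4 CPM per kb first, followed by *Chil3* (11.4), *Fn1* (3.31), *F13a1* (1.39), *Retnla* (0.255) and *Il31ra* (0.00752), each neighbouring pair overlapping in range.

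IFN-γ with LPS moved 3 of the 6 genes relative to M0, *Tgm2* upward and *Fn1* and *F13a1* downward. Over all tested genes 37% were called higher and 40.3% lower in M1 than in M0. The median log2 fold change of the 6 was −0.33, beside −0.03 over all genes.

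*Tgm2* was thus highest in M1, so that the name of an IL-4 effector does not describe its largest change in these cells. M1 libraries held 463 to 1217 CPM (median 705) and did not overlap those of M0 or M2. The log2 fold change over M0 was 2.46 (SE 0.14, edgeR, adjusted p = 7.63e-19), and without p254I replicate 5 the M1 mean was 763 ± 253 CPM (SD, n = 14) beside 753 ± 246 with it (n = 15). The counting tool's use of strand is not given in the sources used here, and exons of *Tgm2* overlap those of *Rprd1b* and *Gm20412* on the opposite strand.

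*F13a1* nearly disappeared in M1. It held 0.0650 to 0.776 CPM (median 0.182, 109 reads over 15 libraries), below every M0 library, a log2 fold change of −5.07 (SE 0.45, edgeR, adjusted p = 3.31e-13). *Fn1* fell to 3.5 to 12.2 CPM (median 5.71), lower than M0 in 15 of 15 mice although the ranges touched, a log2 fold change of −2.65 (SE 0.28, edgeR, adjusted p = 3.07e-11). Without p254I replicate 5 the M1 means were 0.279 ± 0.231 CPM for *F13a1* and 5.79 ± 1.90 CPM for *Fn1* (SD, n = 14), beside 0.271 ± 0.224 and 6.22 ± 2.47 with it. The fibroblast and stromal sums were lower in M1 as well, at 6.70 to 20.8 CPM, with 4 of 4 tested markers called lower, and the part of such cells in the *Fn1* level was not tested.

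*Chil3* lay at 5.17 to 33.7 CPM in M1 (median 9.72), within the range of M0, a log2 fold change of −0.61 (SE 0.29, edgeR, adjusted p = 0.0577). Here the call turned on 1 library and on the test. With all libraries kept, DESeq2's Wald test called the difference (−0.61, adjusted p = 0.0471). Without p254I replicate 5, whose 33.7 CPM was the highest of the 15, the mean dropped from 12.4 ± 7.25 to 10.9 ± 4.40 CPM (SD) and the log2 fold change of −0.76 was called (edgeR, adjusted p = 0.017). The gene was lower in M1 than in M0 in 11 of the 14 other mice.

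*Retnla* and *Il31ra* stayed near 0 in M1 and were not called against M0. *Retnla* held 0 to 0.249 CPM in the 14 other libraries (26 reads) and 49.1 CPM in p254I replicate 5. *Il31ra* held 0 to 0.174 CPM in the 14 (17 reads) and 1.08 CPM in that library. The mean of *Retnla* in M1 was 3.34 ± 12.7 CPM with it and 0.0678 ± 0.0745 without, and that of *Il31ra* 0.112 ± 0.273 with it and 0.0431 ± 0.0586 without.

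M2 set directly against M1 gave a call for each of the 6 genes, 5 higher in M2 and *Tgm2* lower, when 40.1% of all tested genes were called higher and 39% lower. This comparison shares its M1 and M2 libraries with those above. Log2 fold changes were 13.19 for *Retnla* and 9.81 for *Il31ra*, both without an SE, 7.01 for *Chil3* (SE 0.36), 5.84 for *Fn1* (SE 0.31), 5.66 for *F13a1* (SE 0.45) and −2.21 for *Tgm2* (SE 0.14). The edgeR adjusted p was at most 1.36e-17 for 5 of them and 8.91e-15 for *F13a1*. No range overlapped between M1 and M2 for any of the 6 genes. The share of all tested genes without overlap was not counted, so this is not read as a trait of the 6. The *Retnla* ratio of means was 1197 with p254I replicate 5 and 58895 without it (counting interval 40195 to 90159), and that of *Il31ra* was 357 with it and 928 without (580 to 1593). Without that library the fitted log2 fold changes were 15.82 for *Retnla* and 10.59 for *Il31ra*.

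**Figure D2:**
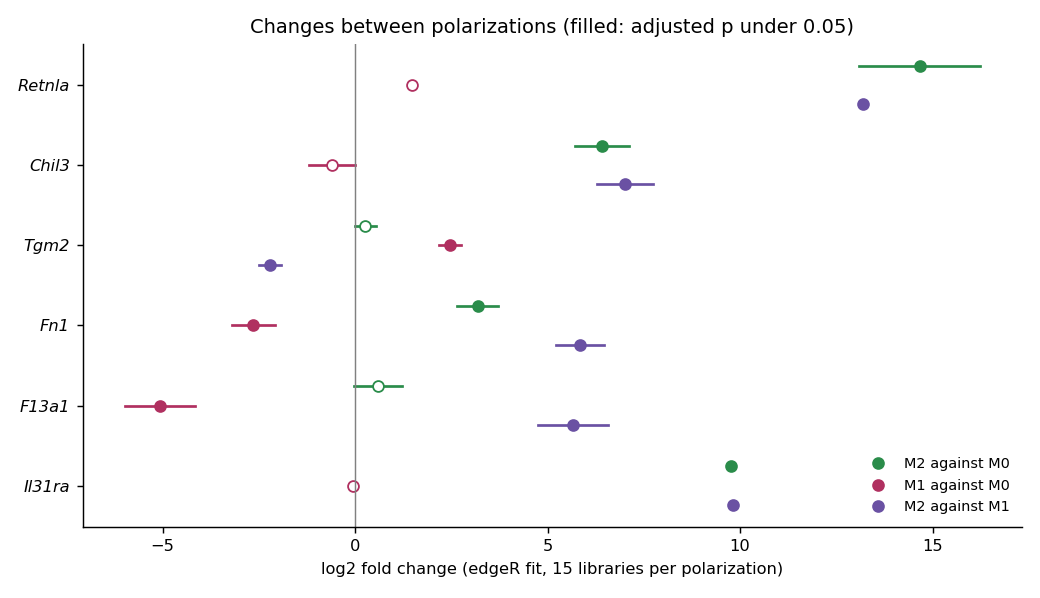
Log2 fold changes of the 6 genes between states with 95% intervals from the edgeR fit (lines), for 15 libraries per state. Points without a line had a group with under 10 reads, and filled points had an adjusted p below 0.05. *F13a1* shows a fall in M1 (−5.07 against M0) beside an open point in M2, *Fn1* a rise in M2 (3.19) and a fall in M1 (−2.65), and *Tgm2* its filled points for M1.

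The other IL-4 target genes examined rose for the most part. Of 17 tested (20 listed, 18 in the table), 15 were higher in M2 than in M0, beside 36.8% of all tested genes. *Cd83* was lower and *Il1rn* was not called, and the median log2 fold change was 5.90. Both this list and the next were chosen with earlier results of these data known. *Arg1*, arginase 1, rose by 11.65 on the log2 scale, *Mgl2*, a C-type lectin, by 8.46, and *Mrc1*, the mannose receptor, by 0.78. The list of transcriptional regulators of alternative activation held 7 of 8 tested genes higher in M2, among them *Irf4* (4.76) and *Egr2* (3.06), and *Kdm6b* was not called (−0.01, edgeR, adjusted p = 0.937).

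Genes of the IL-4 receptor and its signalling chain were called in both directions. 2 of the 8 tested were higher in M2 than in M0 (*Il2rg*, the common gamma chain, by 0.62, and *Irs2*, a docking protein, by 0.43) and 4 were lower, including the receptor chain *Il4ra* (−0.76) and *Stat6* (−0.13), shares near the 36.8% and 39.6% of all tested genes. In M1, 5 were higher than in M0, *Il4ra* by 1.85. Of 5 feedback inhibitors, *Cish* (6.42), *Socs2* (5.83) and *Socs1* (5.15) were higher in M2 and *Socs3* and *Ptpn6* were lower. *Retnlg*, the *Retnla* neighbour, was called lower in M2, at 0.126 ± 0.118 CPM beside 0.728 ± 0.650 CPM in M0 (SD, n = 15). It held few reads, 328 in M0 and 50 in M2. Summed neutrophil markers had a median of 49.9 CPM in M0 and 23.2 CPM in M2. Neither the part of such cells in the *Retnlg* level nor that of its motif was tested.

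Variation among libraries set the members apart within the M2 state. After the genotype means were subtracted, the SD of the log2 level was 1.01 for *F13a1*, 0.71 for *Retnla*, 0.62 for *Fn1*, 0.54 for *Chil3* and 0.29 for *Tgm2*, beside 0.16 for the median gene with at least 1 CPM. *Il31ra* had an SD of 0.12, and 31.8% of those genes had a smaller one, compared to 98.8% for *Retnla*. The highest M2 library held 7.22 times as much *Retnla* as the lowest, 15.6 times as much *F13a1* and 1.33 times as much *Il31ra*. These spreads include differences among replicate numbers, which the 3 genotypes share. Such differences made up 60.4% of the M2 variance for *F13a1*, 51.6% for *Chil3*, 40.7% for *Fn1* and 40% for *Retnla*. The share was 16.2% for *Tgm2* and 15.7% for *Il31ra*, beside 56.7% for the median gene.

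*Retnla*, *Chil3* and *Fn1* varied together over the 15 M2 libraries. With genotype means subtracted, Pearson's r was 0.90 for *Retnla* and *Chil3* (Spearman's rho 0.89), 0.86 for *Retnla* and *Fn1* (rho 0.80) and 0.91 for *Chil3* and *Fn1* (rho 0.88). Leaving out the 2 libraries farthest from the median gave 0.83, 0.76 and 0.86. *F13a1* showed r of 0.24 with *Retnla*, 0.08 with *Chil3* and 0.07 with *Fn1*. *Il31ra* gave 0.58 with *Retnla*, which dropped to 0.31 without the 2 farthest libraries. With the means of each replicate number subtracted too, r among *Retnla*, *Chil3* and *Fn1* was 0.99, 0.92 and 0.92 in the same order, that of *Il31ra* with *Retnla* 0.86 and that of *F13a1* with *Retnla* −0.37. These are descriptions over libraries that share replicate numbers across genotypes, and no p is attached.

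**Figure D3:**
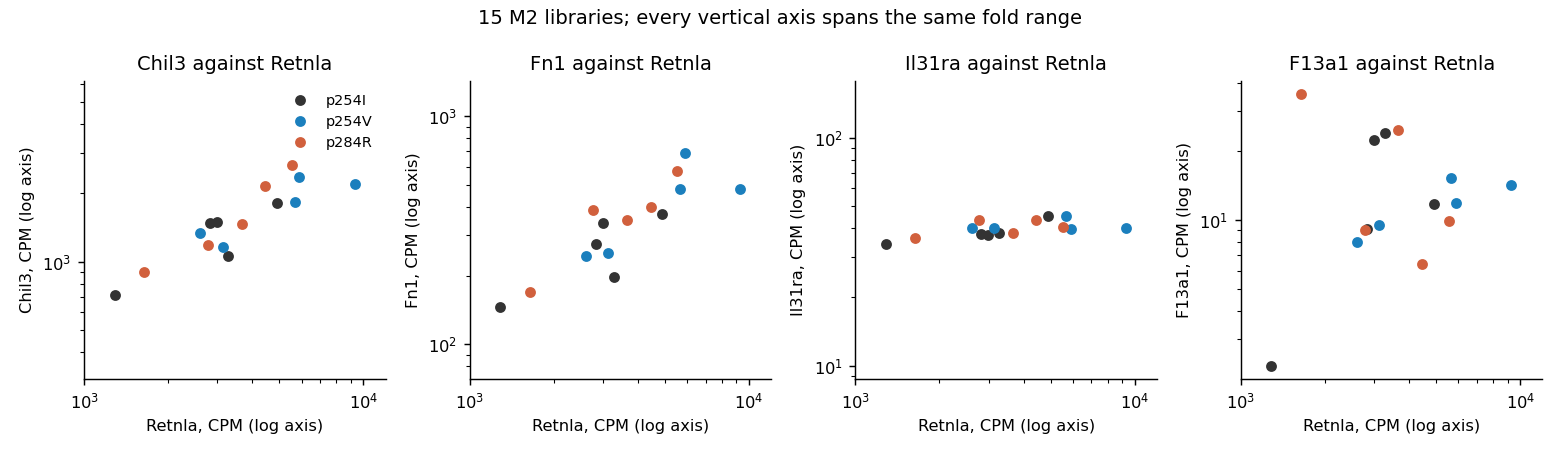
CPM of *Chil3*, *Fn1*, *Il31ra* and *F13a1* against *Retnla* in the 15 M2 libraries, both axes logarithmic, with each vertical axis spanning the same fold range and colors for genotypes. *Chil3* and *Fn1* rise with *Retnla* (r of 0.90 and 0.86). *Il31ra* spans only 34.1 to 45.3 CPM (r of 0.58), and *F13a1* is scattered (r of 0.24).

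In M0 the replicate number, which the 3 genotypes share, went with the level of 3 genes more than with that of the median gene. *F13a1* of number 2 was 20.4 CPM in p254I, 15.3 in p254V and 19.6 in p284R, and of number 5 was 4.75, 2.92 and 2.42 CPM. Number means were 10.7, 18.4, 10.6, 3.76 and 3.36 CPM for numbers 1 to 5. Differences among numbers made up 94.2% of the variance of its log2 level in M0 after genotype means were subtracted. The share was 88.2% for *Chil3*, 78.9% for *Fn1* and 67.7% for *Tgm2*, beside 68.7% for the median gene.

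The *Chil3* means were 26.6, 37.6, 13.5, 9.58 and 6.08 CPM for numbers 1 to 5 in M0, and those of *Fn1* were 75.6, 43.5, 37.0, 16.6 and 20.8 CPM. Numbers 4 and 5 were thus low for all 3 genes. Summed neutrophil markers (*S100a8*, *S100a9*, *Ly6g*, *Elane* and *Mpo*) had number means of 93.7, 166, 44.8, 41.5 and 22.1 CPM in M0, ranging from 18.8 to 196 CPM. Fibroblast and stromal sums had number means of 64.3, 33.9, 48.1, 26.2 and 28.9 CPM, and macrophage sums of 30627, 31434, 27433, 22467 and 20344 CPM. None of the markers in these lists was at 0 reads in M0. The part of these cells in the levels of the 3 genes was not tested, and what a replicate number stands for is not given in the sources used here.

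The 3 genes also varied together in M0, with r of 0.83 for *Chil3* and *F13a1* (rho 0.81), 0.76 for *Fn1* and *F13a1* (rho 0.72) and 0.68 for *Chil3* and *Fn1* (rho 0.73) after genotype means were subtracted. With the means of each replicate number also subtracted, r was −0.19, 0.58 and 0.10 for these pairs, a calculation chosen after seeing the data. Levels in M0 and M2 of the same mouse were then set side by side. Across the 15 mice, with genotype means subtracted, M0 and M2 levels of *F13a1* correlated with r = 0.83 (rho 0.87, and 0.76 without the 2 farthest mice), and those of *Fn1* with r = 0.66 (rho 0.60, and 0.56). *Chil3* gave r = 0.25 (rho 0.24, and 0.13). With number means subtracted as well, r was 0.77 for *F13a1*, 0.39 for *Fn1* and −0.11 for *Chil3*.

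**Figure D4:**
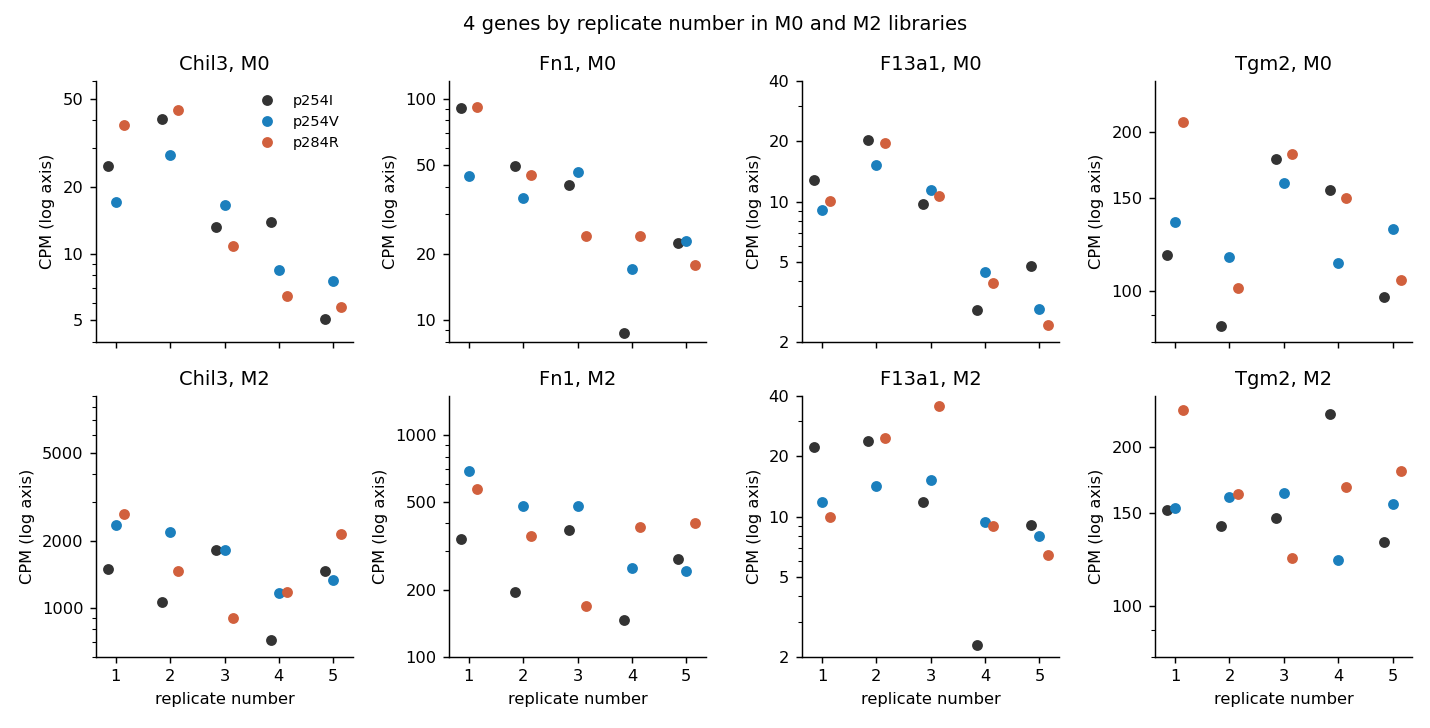
CPM (log axis) of *Chil3*, *Fn1*, *F13a1* and *Tgm2* in M0 (top) and M2 (bottom) libraries by replicate number, with points colored by genotype. In M0, numbers 4 and 5 of all genotypes lie low for *F13a1*, at 2.42 to 4.75 CPM.

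By the same log2 levels over all 45 libraries, the genes most like *Retnla* were *Scn3a* (r = 0.995), *Rnase2a* (0.993) and *Kcnd3* (0.991), and the same 3 genes led for *Il31ra*. *Chil3* was nearest to *Mgl2* (0.984), *Chil4* (0.975) and *Aldh1a2* (0.975), *Fn1* to *Myrf*, *Snn* and *Clcn5* (0.979 to 0.978), *F13a1* to *Mmp8* (0.963), *Rftn1* and *Gab1*, and *Tgm2* to *Masp1* (0.961), *Cysltr2* and *Creb5*. These correlations run over 3 states with different means. Within M2 alone, after genotype means, *Retnla* was nearest to *Nfe2* (0.959), *Aqp9* (0.945) and *Aldh1a2* (0.944), *Chil3* to *Ddhd1* (0.962), *Fn1* to *Pecam1* (0.936) and then *Chil3*, *F13a1* to *Dcstamp* (0.973), *Tgm2* to *Maf* (0.860) and *Il31ra* to *Tbxas1* (0.944).

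Whether *Famin* genotype changed the IL-4 response of these genes was examined within M2 and as the difference of M2 responses. No member was called in M2. For p254V against p254I 0% of all tested genes were called (0 genes at adjusted p, 329 at an unadjusted p under 0.05 and 2 by DESeq2). For p284R against p254I 0.00775% were called. The counts at an unadjusted p given here and below are under the share of 0.05 of tested genes expected without any difference. They are not read as differences.

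*Retnla* in M2 was 2989, 3279, 4898, 1286 and 2823 CPM in p254I, 5891, 9293, 5668, 3130 and 2610 CPM in p254V, and 5538, 3662, 1639, 2770 and 4444 CPM in p284R. The p254V libraries reached highest, and all 3 groups overlapped. The log2 difference was 0.80 for p254V (95% interval −0.63 to 2.23, edgeR, adjusted p = 0.999) and 0.24 for p284R (−1.18 to 1.66, adjusted p = 1).

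*Fn1* in M2 was 340, 197, 372, 146 and 276 CPM in p254I, 687, 478, 479, 252 and 244 CPM in p254V, and 574, 349, 169, 386 and 400 CPM in p284R. The groups overlapped, with log2 differences of 0.69 (95% interval −0.17 to 1.54) and 0.50 (−0.35 to 1.35). *Chil3* means were 1309 ± 426, 1772 ± 519 and 1665 ± 716 CPM (SD, n = 5) in the same order of genotypes, with differences of 0.44 (−0.53 to 1.40) and 0.35 (−0.61 to 1.31). These intervals leave room for changes of over 2-fold in *Retnla*, *Fn1* and *Chil3*.

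*Il31ra* gave the tightest bound, at 38.5 ± 4.09, 41.1 ± 2.34 and 40.5 ± 3.33 CPM (SD, n = 5), with log2 differences of 0.10 (95% interval −0.35 to 0.54) and 0.07 (−0.37 to 0.52). *Tgm2* lay at 161 ± 40, 151 ± 17.0 and 174 ± 40.4 CPM, differences of −0.09 (−0.57 to 0.38) and 0.11 (−0.36 to 0.59). *F13a1* lay at 13.9 ± 9.16, 11.8 ± 3.09 and 17.2 ± 12.6 CPM, differences of −0.24 (−1.30 to 0.83) and 0.31 (−0.75 to 1.36).

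The M2 response, M2 less M0 on the log2 scale, did not differ from p254I by the test in either genotype for any member, nor for any gene (0% and 0% called, by edgeR). With an unadjusted p under 0.05 stood 167 genes for p254V and 70 for p284R, and DESeq2 called 0 and 0. The largest member estimates with an interval were those of *Fn1* in p254V, 1.04 (95% interval −0.18 to 2.26, edgeR, adjusted p = 1), and of *Chil3* in p254V, 0.78 (−0.62 to 2.17). Averaged over states, 0.0155% of genes were called for p254V and 0.0155% for p284R, none of them a member. With the number as a replicate block 7 genes were called for p284R in place of 2, and without p284R replicate 1 there were 19. In M0, 0% and 0% of genes were called by edgeR (231 and 140 at an unadjusted p under 0.05, 1 and 1 by DESeq2), and 1 gene for p284R with the number as a replicate block.

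In M1, 0.263% of genes were called for p284R against p254I, with *Retnla* among them (log2 difference −6.92, edgeR, adjusted p = 0.0188), and 0% for p254V (120 at an unadjusted p under 0.05, 3 by DESeq2). With the number as a replicate block 64 genes were called in place of 34, and *Retnla* was not one of them. *Retnla* in M1 was 0, 0.0323, 0.0650, 0.0376 and 49.1 CPM in p254I, 0.137, 0.0370, 0.200, 0.0456 and 0.0347 CPM in p254V, and 0.0396, 0.249, 0.0426, 0.0287 and 0 CPM in p284R. Without p254I replicate 5 the difference was 0.97 in the other direction (edgeR, adjusted p = 0.97), and with the block it was −5.97 (adjusted p = 0.105). The call was also lost when p284R replicate 3, 4 or 5 was left out, at −6.79, −6.64 and −6.72 (edgeR, adjusted p = 0.133, 0.161 and 0.151). The number of genes called without those mice was 1, 1 and 0, and it was 109 without p284R replicate 2. The p254V difference of −6.56 (edgeR, adjusted p = 0.308) likewise became 1.34 without that library.

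*Il31ra* had no read in any of the 5 M1 libraries of p284R, 124095623 reads in all after TMM scaling, which allows up to 0.0242 CPM. It held 21 reads in p254I replicate 5, 4 over the other 4 p254I libraries and 13 in the p254V libraries. The p284R difference was −5.44 and not called (edgeR, adjusted p = 0.13). It was −3.13 without p254I replicate 5 (adjusted p = 0.536) and was called without the mouse p254I replicate 3 (−5.81, adjusted p = 0.0481), neither value being a bound. Against that limit, the M2 level of *Il31ra* in p284R, 40.5 CPM, was at least 1674-fold higher than in M1.

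The M1 library of p254I replicate 5 was compared with the M2 culture of the same mouse. Its *Retnla* was 1.74% of the M2 level (957 reads), *Chil3* 2.29%, *Il31ra* 2.87% and *Fn1* 4.43%, all 4 above every other M1 library. *F13a1*, at 0.154 CPM and 1.69%, was within the range of the others. In the 14 other M1 libraries *Retnla* reached at most 0.00681% of its own mouse's M2 level, *Il31ra* 0.432%, *Chil3* 1.82% and *Fn1* 3.19%. Of the 17 other IL-4 targets tested, 11 were above all 14 others in that library, among them *Arg1* (40.8 CPM, beside at most 0.912) and *Mgl2* (15, beside at most 2.37). None of the 8 M1 response genes was above all 14 and 1 was below. Over all genes 892 of 12905 were above all 14, and this number ran from 333 to 1491 when each M1 library was taken in turn.

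**Figure D5:**
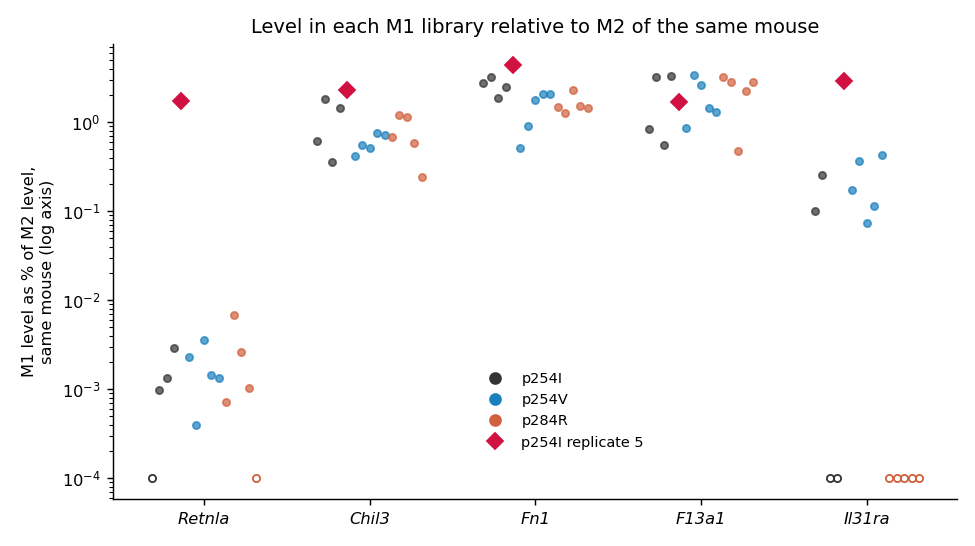
Level of 5 genes in each M1 library as a percent of the level in the M2 library of the same mouse (log axis), with open circles at the foot for 0 reads. The red diamonds, p254I replicate 5, lie at 1.74% for *Retnla* and 2.87% for *Il31ra*, far above the other mice, nearer to them for *Chil3* and *Fn1*, and within their range for *F13a1*.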

How the data were processed

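RNA was sequenced as stranded, single-end mRNA libraries from 45 cultures of 15 mice. Per the labels and the study's methods, reads were trimmed with Trim Galore and aligned with HISAT2 to mm10, while the series text names Cutadapt and STAR. The counting tool, its annotation and its use of strand are not given in the sources used here. The authors deposited raw read counts for 29307 genes and a table of CPM for 11900 genes, whose values were whole reads for 100% of entries (tolerance 0.001) and equal to the deposited counts.

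Counts were analysed here with edgeR 4.0.16 in R 4.3.3. The function filterByExpr, given the 9 groups, left 12905 genes, which were scaled by TMM (factors 0.939 to 1.1) and fitted with the robust quasi-likelihood model (glmQLFit, glmQLFTest) over all 45 libraries without a block. The study's methods name limma-voom, which was an alternative here (limma 3.58.1). P-values were adjusted by Benjamini-Hochberg over all genes tested, in each of 13 comparisons, with a threshold of 0.05. Fits were tested on simulated counts. DESeq2 1.42.0, size factors, no filter, replicate blocks, only the libraries compared and each mouse left out were other alternatives.

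The labels give genotype, number and state, and the same genotype and number were taken here to name the same mouse. The main fit had no block, so its tests did not compare states within animals. Only the fits with the mouse as a block did. Deviations from group means correlated above 0.1 in 15 of 15 mice between M0 and M2, in 12 of 15 between M0 and M1 and in 9 of 15 between M1 and M2. For the same number in 2 genotypes all 5 pairs were above 0.1 except in M2 of p284R (4 of 5).

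The 6 genes and all gene lists were chosen with earlier results of these data known. Named genes were the 6, list genes that a result needed, and the 3 genes most correlated with each over 45 libraries or within M2. Log2 levels used a pseudocount of 0.1 CPM. An SE is given where each group of 5 libraries in the comparison held at least 10 reads of the gene. Correlations carry no p. Intervals on ratios and the limit for a count of 0 (3 counts) cover counting error only, at 95%. Total depth was 17239009 to 43740283 reads per library (median 27553642). Symbols came from GENCODE vM21 for 29102 gene IDs and promoters from RefSeq (6 of 8 genes sought). No 2 libraries held identical values, and no column was left unassigned. One marker list, of monocytes, is not reported here.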

Additional observations from a re-analysis of the deposited data

Results flagged for a closer look

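Libraries were set against the other 4 of their group, and a library was marked when its gap to the nearest exceeded 0.71 of the group's range. Of 53 sets of 5 libraries, each for 1 gene in 1 group, 9 held such a library. The cutoff marks about 1 in 20 for independent sets of normally distributed values. The sets here share libraries and some hold few reads, so 9 of 53 is not read as an excess. In M1, *Retnla* of p254I replicate 5 was 49.1 CPM beside 0.0650 for the next, and *Il31ra* of the same library was 1.08 CPM beside 0.0970. *Retnla* of p284R replicate 2 in M1 was 0.249 CPM beside 0.0426. *F13a1* in M1 was highest in replicate 2 of both p254I (0.776 CPM beside 0.187) and p284R (0.706 CPM beside 0.317), and *Chil3* in M1 was highest in replicate 2 of p254V (12.2 CPM beside 9.72).

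In M2, *Tgm2* stood apart in replicate 4 of 2 genotypes in opposite directions, high in p254I (231 CPM beside 152) and low in p254V (122 CPM beside 153). *Il31ra* in M2 was highest in p254V replicate 3, at 45.3 CPM beside 40.3, in a group whose other 4 libraries lay between 39.6 and 40.3 CPM.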

How the results depend on the processing

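The M2 calls of *Retnla*, *Chil3*, *Fn1* and *Il31ra* against M0, the M1 calls of *Tgm2*, *Fn1* and *F13a1* against M0 and all 6 calls of M2 against M1 kept direction and call in each of 25 alternatives. Low reads limited *Retnla* and *Il31ra* in M0 and M1, and 5 mice per genotype limited the genotype comparisons. Except where a library, by being left out, is named, the cause of a change was not tested. For *Tgm2* in M2 against M0, limma-voom (adjusted p = 0.0495) and the libraries compared alone (edgeR, adjusted p = 0.0437) gave a call, and all 3 replicate blocks gave one for both *Tgm2* and *F13a1* (adjusted p from 0.0189 to 0.0376 and from 6.79e-05 to 0.021, edgeR and limma). DESeq2 called *Chil3* in M1 against M0 (adjusted p = 0.0471), *Retnla* for p254V in M1 (0.000221) and *Il31ra* for p284R in M1 (0.00328).

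Counts of genes called by genotype moved as follows. For p254V over all states 2 became 5 with DESeq2, 0 with limma-voom and 0 with the mouse as random replicate block. For p284R over all states 2 became 4 with size factors, 11 with DESeq2, 7 with the number as replicate block, 1 with the random block and 4 on reads recovered from the CPM table, an alternative chosen after seeing the data. In M0, DESeq2 called 1 for p254V and 1 for p284R in place of 0, and for p284R the number block and the libraries compared alone gave 1 each. In M1, p254V went from 0 to 3 genes and from 0 to 1 of the 6 genes with DESeq2. For p284R in M1, 34 genes became 64 with DESeq2, 11 with limma-voom, 64 with the number block, 7 with the random block and 1 with the libraries compared alone. Of the 6 genes, 1 was called for p284R in M1, 2 with DESeq2 and 0 without a filter, with limma-voom, with either block and with the libraries compared alone. In M2, DESeq2 gave 2 for p254V in place of 0, and for p284R 2 in place of 1, as did the libraries compared alone. The log2 difference of *F13a1* for p254V in M2, −0.24, became 0.19 with limma-voom, 0 with the number block and 0.18 with the random block. Besides these and the *Retnla* call of p284R in M1, the blocks changed no call of the 6 genes in the differences reported.

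With 1 mouse or library left out at a time, gene counts ran from 1 to 4 for p254V, 2 to 19 for p284R, 0 to 1 for either genotype in M0, 0 to 109 for p284R in M1 (0 to 2 of the 6 genes), 0 to 1 for p254V in M2 and 1 to 2 for p284R in M2. Log2 differences ran from −7.06 to 1.34 for *Retnla* in p254V M1, −8.08 to 0.97 for *Retnla* in p284R M1, −5.81 to −3.13 for *Il31ra* in p284R M1, −0.147 to 0.078 and −0.019 to 0.277 for *Tgm2* in M2 of p254V and p284R, and −0.515 to 0.053 and −0.146 to 0.596 for *F13a1*. Those of *Tgm2* and *F13a1* in M2 against M0 ran from 0.23 to 0.33 and 0.47 to 0.70, and of *Chil3* in M1 against M0 from −0.84 to −0.47. A further 45 differences of the 6 genes were called in none of 1083 fits, and 104 of these fits changed sign. Without p254I replicate 5 of M1, 2 of the 3 most similar genes over all libraries were shared for each gene but *Tgm2*, which shared 3.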

Other observations

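Receptor genes related to *Fn1* and *Il31ra* were called in both directions in M2. *Itgb3*, the beta chain of the integrin that binds fibronectin with *Itgav*, rose from a mean of 16.6 CPM in M0 to 149 CPM in M2 (log2 fold change 3.17, edgeR, adjusted p = 8.49e-20) and fell to 1.77 CPM in M1 (−3.38, adjusted p = 3.02e-18), the same order of states as *Fn1*. Of the 5 fibronectin receptor chains tested, 3 were higher and 2 lower in M2 than in M0. *Itga5* was at 0.30, *Itgb1* at 0.08, *Itgav* at −0.49 and *Itga4* at −1.10. Over all tested genes 36.8% were called higher and 39.6% lower.

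*Osmr*, the chain that forms the IL-31 receptor with *Il31ra*, held 166 reads over all 45 libraries and was not tested, and *Il31* itself held 2. *Il6st*, the shared chain of related receptors, was 1.42 higher in M2 than in M0 on the log2 scale (edgeR, adjusted p = 7.4e-20). *Osm* (−1.59) and *Lifr* (−1.11), the other tested genes of that list, were called lower. Among the transglutaminases other than *Tgm2* and *F13a1*, only *Tgm1* was tested, at −1.09 in M2 and 0.84 in M1 against M0.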
